A study of Mus musculus with 16 samples.

Results

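The myosin light chain genes Myl1, Myl2, Myl3, Myl4, Myl6, Myl6b, Myl7, Myl9, Myl12a and Myl12b were followed through 4 groups of sorted mouse cardiomyocytes (CMs). All probes that the scanner files name for 1 of these 10 genes were taken, which gave 10 of 34821 gene names and 12 of 55681 probes on the microarray, with 2 probes each for Myl1 and Myl6. All mice were CD1 wild-type animals. The groups EL and EH came from hearts of embryonic day (E) 15.5, from which cells positive for the surface receptor ERBB-2 were sorted into a fraction with a low (EL) and a fraction with a high level (EH) of integrin α6 (ITGA6, CD49f). The groups PL and PH came from hearts of postnatal day (P) 2. There, non-myocytes were first depleted with magnetic beads, ERBB-2 was not used, and the remaining cells were sorted into the ITGA6 low (PL) and the ITGA6 high (PH) fraction. Each experiment pooled 20 to 30 embryonic or 15 neonatal whole hearts and collected at least 50000 cells per fraction, so that a sample stands for a pool of animals and of chambers. Each group comprised 4 samples on 4 one-color Agilent microarrays (16 in all), numbered 2, 3, 6 and 8 at E15.5 and 2, 3, 4 and 5 at P2.

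Myosin moves along actin with heavy chains that carry the motor, and each heavy chain neck binds an essential and a regulatory light chain. Essential light chains stiffen the neck, whereas regulatory light chains can be phosphorylated by light chain kinases, which in smooth muscle and nonmuscle cells switches the motor on and in the heart tunes contraction. The heart makes chamber-specific forms. MYL7 and MYL4 are the regulatory and the essential light chain of the atria, and MYL2 and MYL3 are those of the ventricles and of slow skeletal muscle. MYL4 is also found in embryonic muscle. MYL1 is the essential light chain of fast skeletal muscle. MYL9, MYL12A and MYL12B are regulatory and MYL6 is an essential light chain of smooth muscle and nonmuscle myosin, while MYL6B is an essential chain of slow skeletal and nonmuscle cells.

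Each probe is a stretch of 60 bases of the transcript. On mm9, the build named by the files, the Myl7 probe lies at chr11:5798186-5798435 on the minus strand and the second Myl1 probe (A_52_P273120) at chr1:66976853-66981100 on the minus strand. The Myl2 probe lies at chr5:122556732-122556791 on the plus strand and the second Myl6 probe (A_55_P2096257) at chr10:127929163-127929304 on the minus strand. The Myl7, the second Myl1 and the second Myl6 probe cover 250, 4248 and 142 bases of the genome with 60 bases and therefore span an intron. The files list the second Myl1 probe for transcript variant 3f and the first (A_51_P416858, chr1:66970948-66971007) for variants 1f and 3f. These 4 probes are shown because each was called in a comparison described below and because light chains are a family of related genes. Capitals mark the longest run of bases that a probe shares with a probe of another light chain gene.
Myl7 probe: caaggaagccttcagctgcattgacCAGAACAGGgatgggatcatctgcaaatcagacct
Myl1 probe: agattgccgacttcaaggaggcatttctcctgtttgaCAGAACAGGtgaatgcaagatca
Myl2 probe: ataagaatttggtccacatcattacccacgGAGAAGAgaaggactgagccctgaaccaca
Myl6 probe: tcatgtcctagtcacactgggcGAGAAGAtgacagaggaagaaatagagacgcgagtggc
The longest run shared between probes of different light chain genes was 9 bases, CAGAACAGG, in the Myl7 and the second Myl1 probe. For the other 10 probes it was 7 or 8 bases. Probes were compared with each other only, and not with the transcripts of other light chain genes.

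On each of the 16 microarrays, all 12 probes were well above background and 0 were saturated. Values are signals after quantile normalization, in arbitrary units, unless a processed signal is named, which is the background-subtracted signal of the scanner software before any scaling. A signal ranks groups for 1 probe and does not compare probes with each other. Several light chain probes were among the brightest of the microarray. Myl3 held rank 1 on all 4 EL and all 4 PL microarrays, and Myl2 ranked between 8 and 11 on them. Quantile normalization gives a rank the same value on every microarray, so Myl3 stood at 324175 on these 8 microarrays although its processed signal lay between 310142 and 335328 in EL and between 337945 and 367318 in PL.

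A probe was called when limma's adjusted p (Benjamini-Hochberg over all 55681 probes) was at most 0.05 and the change at least 3-fold. At E15.5, 3 of 12 light chain probes were called higher in EH than in EL, namely both Myl1 probes and Myl7, and 0 were called lower. Of all probes, 1.17% were called higher and 0.454% lower in that comparison. At P2, 5 of 12 were called higher in PH than in PL (both Myl1 probes, Myl4, Myl7 and Myl12b) and 2 lower (Myl2 and Myl3), against 1.73% and 0.916% of all probes. Among the 22250 probes detected in all 4 samples of any group (well above background), which include all 12, the shares called higher and lower were 2.56% and 0.984% at E15.5 and 3.79% and 1.8% at P2. By the adjusted p alone, 5 probes were higher and 3 lower in EH (4.27% and 3.83% of all probes), and 8 were higher and 3 lower in PH (6.15% and 5.41%). The median log2 fold-change over the 12 probes was 0.57 at E15.5 and 1.30 at P2, while the median over all probes was -0.02 and -0.01. At a limit of 2-fold, 4 probes were higher in EH (Myl9 added; 1.97% of all probes), 2 were lower (1.14%) and 8 higher in PH (2.82%). In sorted bulk samples, fewer cells of a type and less RNA per cell cannot be told apart.

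**Figure D1:**
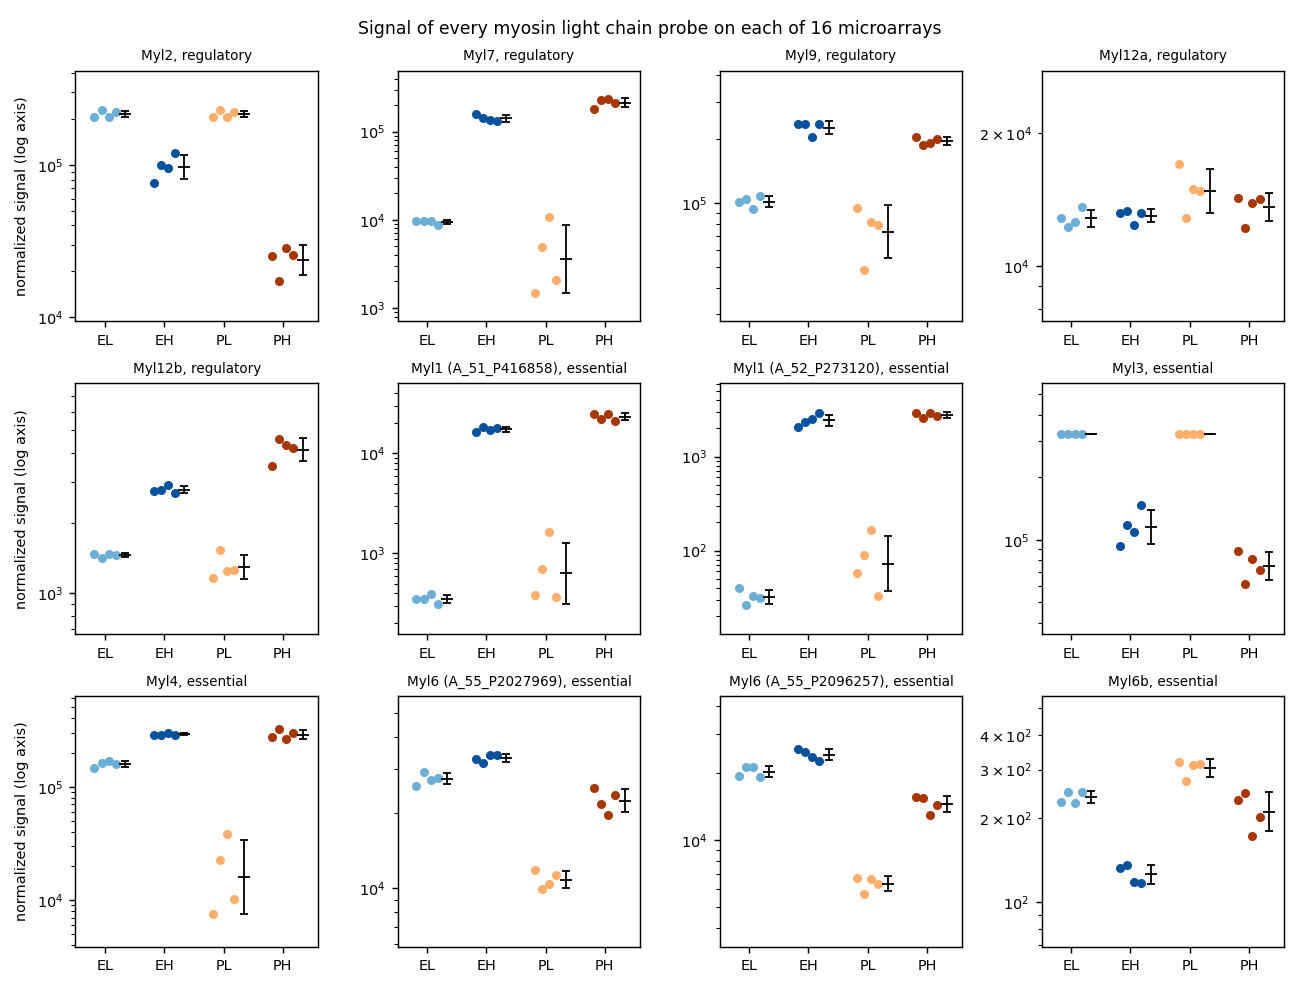
Normalized signal (log axis, arbitrary units) of the 12 light chain probes on each microarray in EL, EH, PL and PH, with 1 point per microarray and the geometric mean with 1 SD of the log2 values beside the points. Myl7, both Myl1 probes and Myl12b were higher on every ITGA6 high than on every ITGA6 low microarray of the same stage, Myl2 and Myl3 were lower, and Myl12a overlapped.

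The regulatory light chains of the 2 chambers moved in opposite directions. Myl7, the atrial regulatory chain, had signals of 9718, 9639, 9709 and 8700 in EL (samples 2, 3, 6 and 8) and of 158689, 141292, 134046 and 131938 in EH. In PL (samples 2, 3, 4 and 5) the signals were 1484, 4897, 10757 and 2088, and in PH 182488, 227021, 234685 and 212872. Neither stage had an overlap between fractions, and the E15.5 samples lay close together. On the log2 scale PL spread more widely than any other group (SD 1.28), with sample 4 the brightest. Myl7 was 15.0-fold higher in EH than in EL (log2 fold-change 3.90, SE 0.44, adjusted p = 5.8e-05 by limma) and 59.7-fold higher in PH than in PL (log2 fold-change 5.90, SE 0.44, adjusted p = 6.0e-07).

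Myl2, the ventricular regulatory chain, read 205884, 227022, 205884 and 220267 in EL and 76185, 99863, 94973 and 119000 in EH. It read 205882, 227022, 205884 and 220265 in PL and 25382, 17238, 28499 and 25665 in PH. The ITGA6 low samples of both stages were alike, whereas the ITGA6 high samples were lower at both stages and lowest at P2. The near identity of EL and PL reflects ranks, since the processed signals lay between 199378 and 214808 in EL and between 187309 and 230947 in PL. Myl2 fell 2.23-fold from EL to EH (log2 fold-change -1.16, SE 0.15, adjusted p = 1.8e-04 by limma), which is under the limit of 3-fold, and 9.02-fold lower in PH (log2 fold-change -3.17, SE 0.15, adjusted p = 8.1e-09). With each microarray scaled to its 75th percentile instead, the log2 fold-change at P2 was -3.79.

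The essential light chains of the chambers were both called at P2, in opposite directions, and neither was called at E15.5. Myl3, the ventricular essential chain, stood at 324175 on all EL and PL microarrays. It read 92963, 118306, 108713 and 147406 in EH and 88446, 61406, 81002 and 71837 in PH. No ITGA6 high sample came within reach of an ITGA6 low sample. Myl3 fell 2.81-fold from EL to EH (log2 fold-change -1.49, SE 0.13, adjusted p = 4.7e-06 by limma), just under the limit, and 4.32-fold lower in PH (log2 fold-change -2.11, SE 0.13, adjusted p = 8.3e-08). Scaling to the 75th percentile gave -1.62 at E15.5, which passes the limit, and -2.91 at P2, where the ITGA6 low samples are no longer held at 1 value. Without EH sample 8, which had the brightest Myl3 signal of EH, the log2 fold-change at E15.5 was -1.61 and also passed the limit.

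Myl4, the atrial and embryonic essential chain, was bright in 3 of the 4 groups. It read 147406, 161965, 168914 and 158690 in EL and 286777, 286777, 297935 and 286777 in EH. It read 7511, 22543, 38340 and 10186 in PL and 272116, 324175, 263115 and 297935 in PH. EL and EH did not overlap and PL lay far below all other groups, again with sample 4 the brightest and sample 2 the dimmest of PL. Myl4 was called higher in PH than in PL (log2 fold-change 4.17, SE 0.37, adjusted p = 3.0e-06 by limma). At E15.5 the log2 fold-change of 0.86 (SE 0.37) had an adjusted p of 0.222 in the fit over all 4 groups, whose spread includes that of PL, and of 1.7e-04 when only EL and EH entered the fit. Over the alternatives the log2 fold-change at E15.5 ranged from 0.39 to 0.89, and limma's adjusted p reached 0.552.

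On each microarray the log2 signal of the ventricular chain was subtracted from that of its atrial counterpart, which removes any factor common to a microarray. A single difference has no zero, because probes differ in brightness, but its change between groups can be read. For Myl7 minus Myl2, EL gave -4.51 ± 0.13, EH 0.55 ± 0.38, PL -5.91 ± 1.29 and PH 3.16 ± 0.38 (mean ± SD, n = 4). The fractions differed by 5.06 at E15.5 and by 9.07 at P2, each with p = 0.0286 in a two-sided exact permutation test, the smallest p that 4 against 4 samples allow. For Myl4 minus Myl3, EL gave -1.03 ± 0.08, EH 1.33 ± 0.28, PL -4.34 ± 1.07 and PH 1.94 ± 0.36 (mean ± SD, n = 4). The fractions differed by 2.36 at E15.5 and by 6.28 at P2, again with the smallest exact p of 0.0286 each. With scaling to the 75th percentile, which does not hold Myl3 at 1 value, they differed by 2.01 and 6.92. These were 4 tests, and after Benjamini-Hochberg adjustment over them the p stayed at 0.0286. With samples paired by their number, an exact sign-flip test over 4 pairs gave p = 0.125 for each, which is the smallest it can give.

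**Figure D2:**
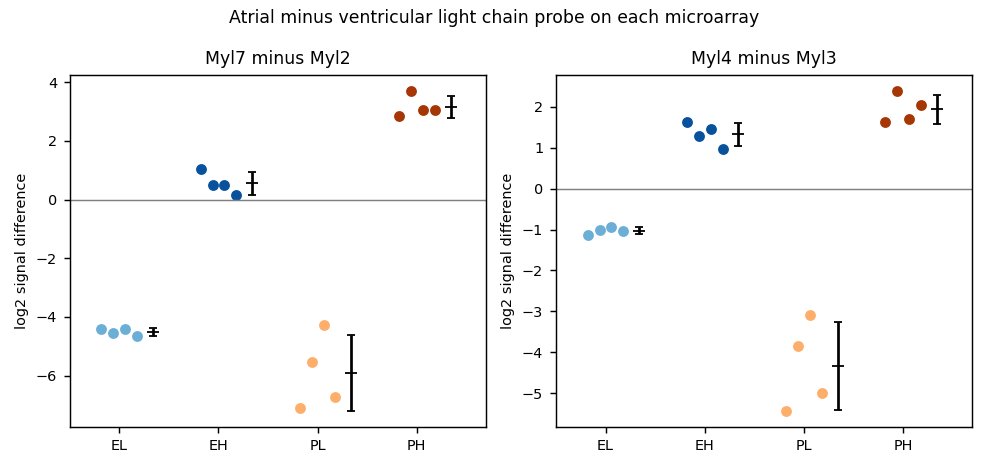
Log2 signal of the atrial minus the ventricular light chain probe on each microarray, for the regulatory pair (Myl7 minus Myl2) and the essential pair (Myl4 minus Myl3), with 1 point per microarray and the mean ± SD (n = 4) beside the points. The differences in EH and PH lie above those in EL and PL for both pairs, and PL has the lowest mean of both.

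Myl1, the essential chain of fast skeletal muscle, showed the largest fold-changes of the family at E15.5. Its first probe read 351, 353, 390 and 313 in EL and 16360, 18195, 17125 and 17787 in EH. It read 389, 699, 1644 and 364 in PL and 24867, 22132, 24703 and 21199 in PH. Every ITGA6 high sample exceeded every ITGA6 low sample, and PL sample 4 was the brightest of the low samples. The log2 fold-change was 5.63 at E15.5 (SE 0.35, adjusted p = 3.4e-07 by limma) and 5.19 at P2 (SE 0.35, adjusted p = 2.2e-07), which are 49.5-fold and 36.5-fold. The second probe, listed for variant 3f, read 26 to 40 in EL, 2067 to 2914 in EH, 33 to 164 in PL and 2554 to 2943 in PH. It gave log2 fold-changes of 6.24 at E15.5 and 5.25 at P2 (both SE 0.35). These values depended on the treatment of dim signals, since normexp correction (offset 50) in place of the scanner software's subtraction gave 4.46 and 4.14. The correction and its offset were not tested apart.

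Markers of skeletal muscle were read beside Myl1. Of 10 such genes, 5 were well above background on 0 of 16 microarrays, namely Myod1, Myf5, Myf6 and Pax7, which encode factors of skeletal muscle precursors, and Actn3 of fast fibers. The signals of all 10 summed to 12754 ± 1290 (EL), 8472 ± 452 (EH), 17415 ± 579 (PL) and 15096 ± 898 (PH), mostly from Ckm (mean ± SD, n = 4). At E15.5, 1 gene was called lower in EH, Tnni2 of fast troponin (log2 fold-change -1.97, adjusted p = 1.0e-05 by limma), and 0 higher. By the adjusted p alone, 2 were higher (Tnnt3, 0.80, and Myog, from a level not well above background in EL) and 2 lower (Tnni2 and Ckm, -0.50). At P2, 1 was called higher in PH, Tnnt3 of fast troponin, which was above background on no PL microarray and at least 3.46-fold higher in PH. Tnni2 turned direction and was 2.97-fold higher in PH (log2 fold-change 1.57, adjusted p = 3.8e-05), with a called interaction of 3.54 (adjusted p = 7.3e-06), and Acta1 was 2.84-fold lower in PH (adjusted p = 0.0022). Such bounds set the mean of the brighter group against the lowest signal well above background on each microarray of the dimmer group. Myog was well above background on 4 of 4 EH, 2 of 4 PH and 0 of 8 ITGA6 low microarrays (EH signal 34.6 ± 10.6, SD, n = 4). The part of skeletal muscle genes in the Myl1 signals was not tested.

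**Figure D3:**
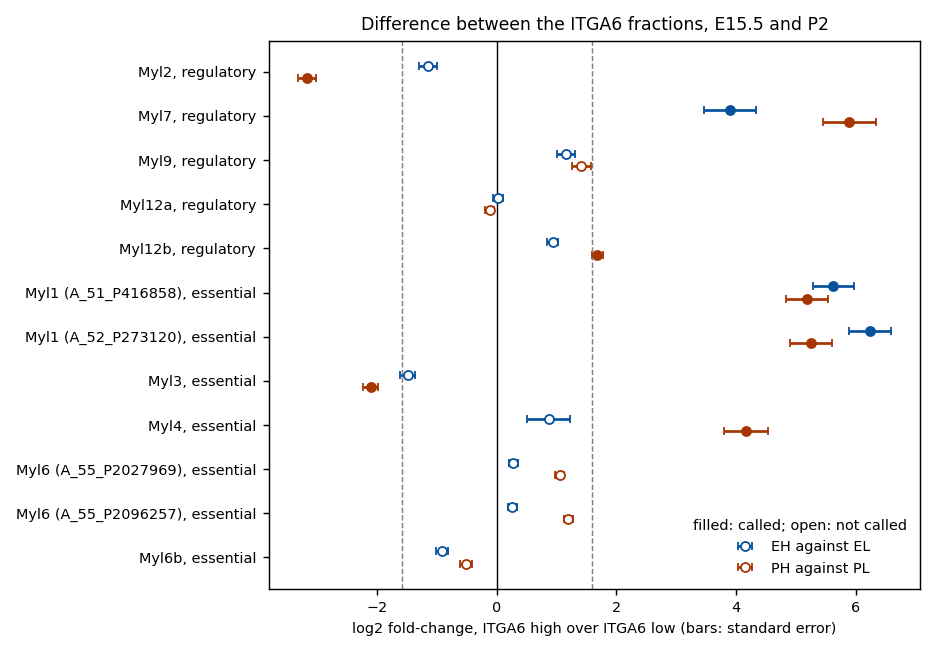
Log2 fold-change of ITGA6 high over ITGA6 low for each light chain probe at E15.5 (EH against EL) and at P2 (PH against PL), with standard errors as bars, filled points where a probe was called and dashed lines at 3-fold. Myl7 and both Myl1 probes lie beyond the right line at both stages, Myl4 and Myl12b pass it at P2, and Myl2 and Myl3 pass the left line at P2.

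Of the light chains of nonmuscle and smooth muscle myosin, Myl12b alone was called between the fractions, at P2. Myl12b, a regulatory chain of nonmuscle myosin, read 1473, 1414, 1473 and 1459 in EL and 2739, 2775, 2908 and 2683 in EH. It read 1159, 1530, 1241 and 1260 in PL and 3515, 4578, 4317 and 4213 in PH. The fractions did not overlap at either stage. It rose 1.91-fold from EL to EH (log2 fold-change 0.93, SE 0.09, adjusted p = 1.6e-05 by limma) and 3.20-fold from PL to PH (log2 fold-change 1.68, SE 0.09, adjusted p = 3.0e-08). The latter was just over the limit, and just under it with scaling to the 75th percentile, at 1.58. Myl12a, its close relative from the neighboring position on chromosome 17, ranged from 12229 to 17002 over all 16 samples. Its fractions overlapped at both stages, and its log2 fold-changes of 0.02 at E15.5 (SE 0.08, adjusted p = 0.960) and of -0.12 at P2 (SE 0.08, adjusted p = 0.505) did not pass the test. The probes lie at chr17:71323508-71323567 (Myl12b) and chr17:71343750-71343809 (Myl12a), both on the minus strand.

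Myl9, the regulatory chain of smooth muscle, read 101540, 104313, 93466 and 108714 in EL and 234685, 234685, 205883 and 234685 in EH. It read 94553, 48423, 81500 and 78649 in PL and 205884, 187443, 191087 and 199892 in PH. The fractions did not overlap. It rose 2.23-fold from EL to EH (log2 fold-change 1.16, SE 0.15, adjusted p = 2.4e-04 by limma) and 2.66-fold from PL to PH (log2 fold-change 1.41, SE 0.15, adjusted p = 2.2e-05). Over the alternatives the Myl9 log2 fold-change at E15.5 ranged from 0.73, which is under 2-fold, to 1.23. Myl6, the essential chain of smooth muscle and nonmuscle cells, was measured by a pair of probes with the same course. The first (A_55_P2027969) had means of 27371 ± 1439 (EL), 33142 ± 1110 (EH), 10839 ± 851 (PL) and 22473 ± 2364 (PH), and the second of 20229 ± 1143, 24132 ± 1308, 6343 ± 476 and 14526 ± 1165 (SD, n = 4). At P2 the log2 fold-changes were 1.05 and 1.20 (adjusted p = 8.0e-07 and 1.5e-07 by limma). At E15.5 they were 0.28 and 0.25 (adjusted p = 0.0527 and 0.0616), although no EH signal overlapped with EL. With only EL and EH in the fit both passed the test (adjusted p = 0.0211 and 0.0490), with sample number as a block the first did (0.0358 and 0.121), and with scaling to the 75th percentile the log2 fold-changes were -0.04 and -0.01. Myl6b, at chr10:127931214-127931273 next to Myl6, went the other way. Its EL signals ranged from 227 to 250 and its EH signals from 117 to 136, and at P2 those of PL ranged from 272 to 318 and those of PH from 173 to 248. The fractions did not overlap at either stage, with log2 fold-changes of -0.92 (SE 0.10, adjusted p = 5.7e-05 by limma) and -0.52 (SE 0.10, adjusted p = 0.0038). Among the alternatives the adjusted p of Myl6b at P2 reached 0.0507.

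Regarding overlap, 8 of the 12 probes had all EH above all EL signals and 3 had all EH below all EL signals, against 7.02% and 9.08% of all probes. At P2 these counts were also 8 and 3, against 6.54% and 6.27%. At both stages the probe with overlap was Myl12a. The E15.5 microarrays lay on 2 slides, and the log2 fold-changes within each slide were 3.96 and 3.79 for Myl7, 5.72 and 5.53 for the first Myl1 probe, -1.14 and -1.19 for Myl2 and -1.46 and -1.58 for Myl3. The second value of each rests on 1 EH microarray, that of sample 6. All P2 microarrays lay on 1 further slide.

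Whether the fractions differed more at P2 than at E15.5 was asked with an interaction term. Slide and the way of purifying the CMs also differ between the stages, and their part in this term cannot be told apart. Myl4 was called, with a difference between its fractions that was 3.30 larger at P2 on the log2 scale (SE 0.52, adjusted p = 0.0027 by limma), and so was Myl2, whose fall from the ITGA6 low to the ITGA6 high fraction was also larger at P2 (-2.02, SE 0.21, adjusted p = 1.1e-04). Thus 1 probe was called higher and 1 lower of 12, against 0.602% of all probes in each direction. Myl6 (0.77 and 0.94, adjusted p = 0.0017 and 2.5e-04) and Myl12b (0.75, adjusted p = 0.0048) passed the test without reaching 3-fold, so that 4 probes were higher and 1 lower by the adjusted p alone (1.81% and 1.35% of all probes). For Myl7 the interaction of 2.00 (SE 0.62) had an adjusted p of 0.128. Without PL sample 4, it was 2.53 and passed (adjusted p = 0.0035), and with normexp correction it was 2.00 and passed (adjusted p = 0.046). The interaction of Myl3, -0.62, did not pass the test (adjusted p = 0.0952). Over the alternatives it ranged from -1.29 to -0.60, under 3-fold throughout, with limma's adjusted p from 0.0097 to 0.155. The interactions of the Myl1 probes, -0.44 and -0.99, did not pass it either (adjusted p = 0.788 and 0.474).

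Between stages, the light chains of the ITGA6 low fraction were compared as PL against EL, and those of the ITGA6 high fraction as PH against EH. Stage, slide and the way of purifying the CMs change together in these comparisons and cannot be told apart. In the ITGA6 low fraction, 0 of 12 probes were called higher and 2 lower (1.6% and 2.15% of all probes). These were Myl4, 9.92-fold lower in PL (log2 fold-change -3.31, SE 0.37, adjusted p = 1.6e-05 by limma), and the second Myl6 probe, 3.19-fold lower (log2 fold-change -1.67, SE 0.08, adjusted p = 8.1e-09). Myl7 was 2.64-fold lower in PL (log2 fold-change -1.40, SE 0.44, adjusted p = 0.0379), with an overlap through PL sample 4. Without that sample the log2 fold-change was -1.93 and passed the limit. With each sample left out in turn, the log2 fold-change of Myl7 ranged from -1.93 to -0.98, with an adjusted p of up to 0.112. Among the other alternatives its adjusted p reached 0.196. At a limit of 2-fold, 1 probe was higher and 4 were lower in PL (3.86% and 4.19% of all probes). In the ITGA6 high fraction, 0 of 12 were called higher and 1 lower (1.3% and 2.1% of all probes), Myl2, which was 4.05-fold lower in PH than in EH (log2 fold-change -2.02, SE 0.15, adjusted p = 6.1e-07 by limma). Myl3 fell by 0.62 on the log2 scale (SE 0.13, adjusted p = 0.0031), under the limit. Myl4 hardly differed between PH and EH, with a log2 fold-change of -0.01 (SE 0.37, adjusted p = 0.996), and Myl7 was 1.51-fold higher in PH with an adjusted p of 0.452. Over the alternatives the Myl7 log2 fold-change ranged from 0.60 to 0.73 and its adjusted p from 0.0068 to 0.583.

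From these levels the groups can be ordered for each chamber gene. For Myl7 the order was PH, EH, EL and PL, with EL and PL overlapping through PL sample 4. PH and EH did not overlap. The fit over all 4 groups did not separate them, whereas limma's adjusted p was as low as 0.0068 among the alternatives. For Myl4, EH and PH shared the top, followed by EL and, far below, PL. For Myl2, EL and PL shared the top by rank, followed by EH and PH. For Myl3 the order was the same as for Myl2.

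PL sample 4 had the brightest Myl7, Myl4 and Myl1 signals of PL. The summed signal of 8 atrial marker genes (Nppa, Sln, Nr2f1, Nr2f2, Gja5, Tbx5, Bmp10 and Fgf12) in PL was 11120, 20923, 41609 and 14361 for samples 2, 3, 4 and 5, with Nppa the brightest probe in all 4 groups. That sum ranged from 11157 to 16558 in EL, from 294065 to 314187 in EH and from 453785 to 519232 in PH. Sample 4 thus led PL in the atrial sum as well, whose part in the light chain signals was not tested. Of the 8 genes, 8 were called higher in EH and 8 in PH (median log2 fold-change 4.72 and 5.76). Nppa had log2 fold-changes of 4.35 and 4.30, Gja5 of 3.27 and 5.40, Tbx5 of 2.72 and 3.53 and Nr2f1 of 5.92 and 5.85. Of 5 ventricular genes (Myh7, Irx4, Hey2, Lbh and Pln), 4 were called lower in EH and 5 in PH (median -2.31 and -4.48). Irx4, a ventricular transcription factor, had log2 fold-changes of -2.31 and -5.57, Lbh of -2.51 and -2.85, and Pln, the phospholamban of the calcium pump, of -1.36 and -3.20. The 9 pan-CM genes, among them Tnnt2, Actc1 and Nkx2-5, were detected on all 16 microarrays, and 1 was called at E15.5 (Myh6, higher) and 0 at P2. By the adjusted p alone, 2 were lower in EH, Actn2 (log2 fold-change -0.51) and Mybpc3 (-0.45). In PH, 3 were lower by that measure, Mybpc3 (-0.68), Ttn (-0.48) and Ryr2 (-0.37), and 0 were higher.

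Markers of other cells were present at E15.5. Of 8 endothelial and endocardial genes, 4 were called higher in EH (Cdh5, Emcn, Eng and Esam) and 0 in PH. Cdh5, the cadherin of endothelial junctions, was at least 10.0-fold higher in EH. This list summed to 1138 ± 71.9 (EL), 1700 ± 726 (EH), 866 ± 589 (PL) and 682 ± 259 (PH), with Kdr the brightest probe (mean ± SD, n = 4). Of 7 leukocyte genes, 2 were called higher in EH (Cd68 and Lyz2) and 0 in PH, and the sum reached 8511 in EH sample 6 against 950 to 1760 in the other EH samples, with Csf1r the brightest probe in EL and EH and Cd68 in PL and PH. Of 6 erythroid genes, 0 were called at either stage, and their sum was highest in EL sample 6 (30886) and EH sample 6 (34493), mostly from Hba-a1. Their part in the light chain differences of E15.5 was not tested. Without EH sample 6, 3 light chain probes were called higher and 0 lower in EH, and the fractions differed by 5.08 for Myl7 minus Myl2 and by 2.31 for Myl4 minus Myl3.

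Of 10 smooth muscle and pericyte genes, Myh11 and Lmod1, which mark contractile smooth muscle, were well above background on 0 of 16 microarrays. In EH, Rgs5 was called higher (at least 2.33-fold) and Cspg4 lower (log2 fold-change -1.66). In PH, Cnn1 (log2 fold-change 2.42) and Tagln (8.03-fold on the linear scale) were called higher, and Acta2 (log2 fold-change -2.79) and Cspg4 (-1.60) lower. The summed signal was 66474 ± 2938 (EL), 54417 ± 5059 (EH), 47879 ± 9499 (PL) and 26858 ± 5764 (PH) (mean ± SD, n = 4), with Acta2 the brightest probe in EL, EH and PL and Smtn in PH. By the adjusted p alone, Tagln (log2 fold-change 1.57) and Pdgfrb (1.11) were also higher in EH and Myocd lower (-0.55). The part of these genes in the Myl9 signals was not tested. Of 8 fibroblast and mesenchymal genes, 0 were called in EH and 1 lower in PH (Postn), with sums of 17170 ± 4298, 8853 ± 2312, 897 ± 497 and 675 ± 125 in that order, with Col1a2 the brightest probe. Of 6 epicardial genes, 0 were called in EH and 1 higher in PH (Wt1, at least 1.43-fold), with sums of 2414 ± 573, 1286 ± 737, 95.9 ± 58.9 and 129 ± 41.6 in the same order, with Msln the brightest probe in EL, EH and PH and Tbx18 in PL. Their part in the stage differences of Myl6 was not tested.

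Heavy chains, to which the light chains bind, were read from the same microarrays. Of 10 sarcomeric heavy chain genes, 5 were detected in all samples of any group, and 1 was called higher and 1 lower at each stage. Myh6, the α heavy chain of adult mouse myocardium and of atria, had signals of 69327 ± 9109 (EL), 246810 ± 14871 (EH), 271280 ± 11169 (PL) and 256367 ± 25116 (PH) (mean ± SD, n = 4). It was called higher in EH (log2 fold-change 1.84, adjusted p = 1.2e-07 by limma) and did not differ detectably at P2 (-0.09, adjusted p = 0.751). Myh7, the β heavy chain of the fetal ventricle, had signals of 245086 ± 6934 (EL), 79187 ± 18100 (EH), 119269 ± 10463 (PL) and 5342 ± 512 (PH) (mean ± SD, n = 4). It was called lower in EH (-1.66, adjusted p = 2.1e-06 by limma) and in PH (-4.48, adjusted p = 1.7e-10). Myh13 was called higher in PH, at least 1.29-fold, from a level not well above background in PL. The interaction was called for Myh6 (-1.93) and Myh7 (-2.83) and for 0 of the other 8. Myh7b passed the test without reaching 3-fold at both stages (-1.58 and -1.24), and so did Myh8 at E15.5 in the other direction (0.66, adjusted p = 0.0023). Median log2 fold-changes of the list were -0.16 at E15.5 and -0.04 at P2, and over the 5 detected genes 0.42 and -0.09.

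Of 4 nonmuscle and smooth muscle heavy chain genes, 0 were called between fractions. Myh9 and Myh10, which bind MYL6 and MYL12 in nonmuscle cells, had log2 fold-changes of -0.10 and -0.18 at E15.5 and -0.31 and 0.35 at P2, of which only that of Myh10 at P2 passed the test (adjusted p = 0.0148 by limma). Myh14 passed the test without reaching 3-fold, with -0.96 and -1.02. Between stages, Myh9 was called lower in PL (-1.64) and in PH (-1.85) and Myh14 higher (2.90 and 2.84), and Myh10 was called lower in PL (-1.71). The list medians between fractions were -0.14 and -0.15. The remaining light chain genes, Mylpf of fast skeletal muscle and Myl10, were called in neither comparison. Mylpf was well above background on 1 of 16 microarrays and Myl10 on 0.

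Of 10 light chain kinase genes, 0 were called at E15.5 and 2 at P2, both higher in PH. Mylk, the kinase of smooth muscle and nonmuscle cells, was well above background on 2 of 4 EL, 4 of 4 EH, 0 of 4 PL and 3 of 4 PH microarrays. It was at least 1.79-fold higher in PH, and at E15.5 it passed the test without reaching 3-fold (adjusted p = 0.0073 by limma). Mylk4 was well above background on the 4 PH microarrays alone, where it read 53.6 ± 13.7 (SD, n = 4), at least 2.70-fold above PL. Mylk3, the cardiac light chain kinase, had signals of 2747 ± 416 (EL), 3328 ± 427 (EH), 5389 ± 275 (PL) and 6242 ± 806 (PH) (mean ± SD, n = 4), and its log2 fold-changes of 0.28 and 0.20 did not pass the test. Median log2 fold-changes of the list were 0.02 and 0.16. Of 7 genes of the light chain phosphatase and its inhibitors, 0 were called, with medians of -0.27 and -0.13. Ppp1r12b, a cardiac and smooth muscle targeting subunit, passed the test without reaching 3-fold (-0.65 and -0.60), and Ppp1r14a, an inhibitor of the phosphatase, did so at P2 (adjusted p = 0.00998 by limma), where it was well above background on no PL microarray and at least 1.21-fold higher in PH. Of 3 calmodulin genes, which encode the calcium sensor of these kinases, 0 were called. Calm2 passed the test at both stages (0.34 and 0.75) and so did Calm3 in the other direction (-0.53 and -0.47), with list medians of 0.19 and -0.13.

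**Figure D4:**
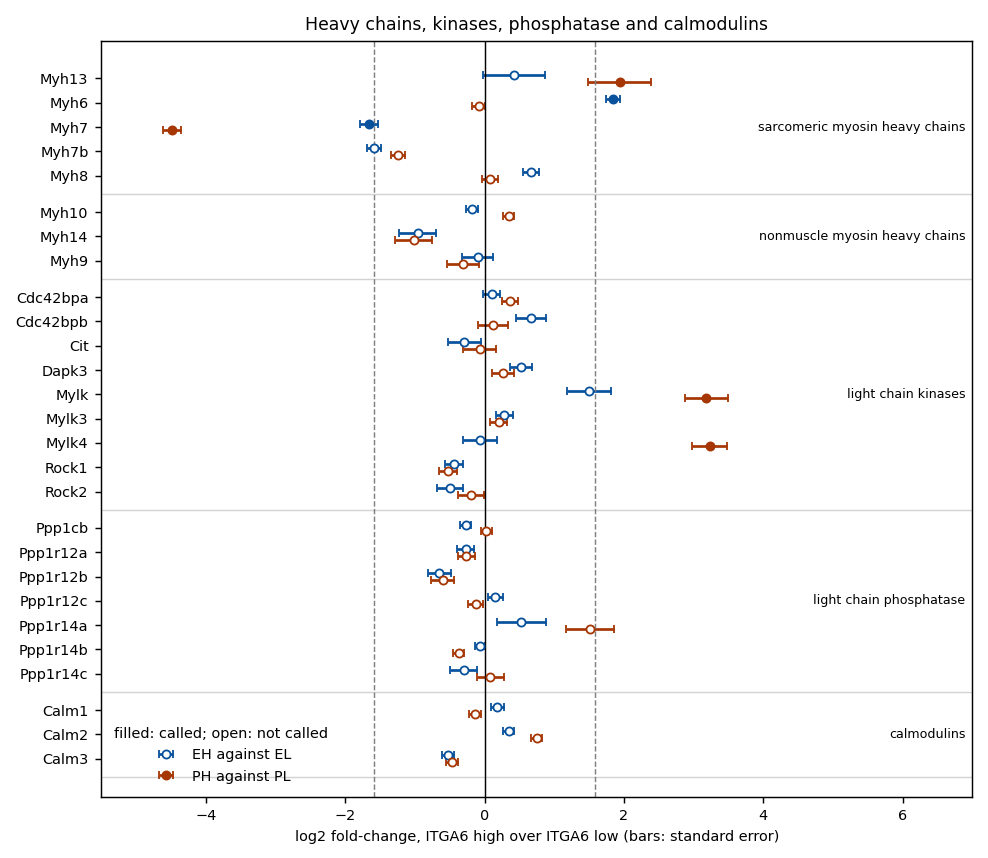
Log2 fold-change of ITGA6 high over ITGA6 low at E15.5 (EH against EL) and P2 (PH against PL) for the heavy chain, kinase, phosphatase and calmodulin genes detected in all samples of any group, with standard errors as bars, filled points where called and dashed lines at 3-fold. Myh7 lies to the left at both stages, Myh6 to the right at E15.5 alone, and Myh13, Mylk and Mylk4 pass the right line at P2, from levels not well above background in PL.

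For 6 light chains, the named genes with the most similar course over the 16 microarrays were sought by the root mean square difference of centered log2 signals. Closest to Myl7 were Gja5 (0.42), the connexin of atrial and conducting CMs, Fgf7 (0.57) and Nr2f2 (0.58), an atrial transcription factor. Closest to Myl1 were Nppa (0.61), the atrial natriuretic peptide, Uts2d (0.65) and Slc7a7 (0.67). Closest to Myl4 were Sh3tc2 (0.42), Dact1 (0.54) and Fabp5 (0.54). Closest to Myl2 were Pdlim1 (0.24), Ptpn14 (0.30) and 9430076C15Rik (0.37), and closest to Myl3 were Sept6 (0.23), Cspg4 (0.26) and Ppip5k2 (0.28). Closest to Myl9 were Pgm5 (0.21), Adarb1 (0.21) and Rasgrp2 (0.22). The light chains themselves varied over the 16 microarrays with an SD between 0.72 (Myl9) and 2.85 (Myl1) on the log2 scale.

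The start regions of the genes were searched for short motifs in RefSeq's GRCm38.p6 promoters, 250 bases before to 50 after each annotated start, on both strands. All 10 genes were matched, with 12 starts. A CArG box, the site of serum response factor, stood in starts of 4 of 10 genes (Myl3, Myl6, Myl7 and Myl9), and 1.63% of 32817 promoters of that length hold one. The motif TATAAA stood in 2 genes (Myl1 and Myl2; 13.6% of promoters), GATAA in 4 (Myl2, Myl3, Myl6 and Myl7; 25.4%), AGGTCA in 3 (Myl2, Myl12a and Myl12b; 16.3%) and the MEF2 site in 0 (3.19%). A CArG box can overlap with the MEF2 site, and a match here is a description of letters only. The promoters of Myl7 and Myl3 are shown because these genes moved in opposite directions between the fractions while both hold a CArG box, printed in capitals. It begins 61 bases before the start of Myl7 and 85 bases before that of Myl3, each on the strand of the gene. The Myl7 stretch is chr11:5898783-5899032 on the minus strand and the Myl3 stretch chr9:110763428-110763677 on the plus strand, both ending at the base before the start.
Myl7 promoter: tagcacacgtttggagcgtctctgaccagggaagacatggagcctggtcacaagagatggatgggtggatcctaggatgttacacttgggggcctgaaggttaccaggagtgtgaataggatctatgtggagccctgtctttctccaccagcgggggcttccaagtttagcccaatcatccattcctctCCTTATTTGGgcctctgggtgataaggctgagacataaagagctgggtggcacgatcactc
Myl3 promoter: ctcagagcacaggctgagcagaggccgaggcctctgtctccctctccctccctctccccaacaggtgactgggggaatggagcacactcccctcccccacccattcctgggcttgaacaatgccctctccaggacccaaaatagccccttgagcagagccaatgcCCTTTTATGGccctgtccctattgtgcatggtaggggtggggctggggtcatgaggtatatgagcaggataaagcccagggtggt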

How the data were processed

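RNA of EL, EH, PL and PH was measured on 16 one-color microarrays after amplification from 10 ng. Per the file headers, the authors extracted the spots with Feature Extraction 10.7.3.1 on mm9 annotation. The deposited processed signal intensity is background-subtracted by that software. The authors also deposited a table of quantile-normalized log2 values (medians 3.009 to 3.01 per microarray, not centered), which served as an alternative and whose columns matched the values computed here with r of at least 0.999995 over probes. Outlier spots were left out, spots of a probe averaged (432 probes had several) and 55681 probes quantile normalized in log2, of which 8 lack a value on some microarray. Group means were fitted with limma 3.58.1 (R 4.3.3) over all microarrays. Python 3.11.15 (with numpy 2.4.6, matplotlib 3.10.9 and pandas 2.3.3) read the files and drew the figures. The fit was tested on simulated data. Alternatives were scaling to the 75th percentile, normexp (offset 50), a floor for dim signals, detected probes only, slide or sample number as a block, the methods' test, a 2-fold limit, fits of the compared groups alone and leaving out each sample. Of 16 microarrays, 35.7% to 46.5% of probes were well above background, and the number of microarrays limits the precision. Samples of a group came from separate experiments, so p-values measure the spread between pools of hearts. The 120 pairs of microarrays held 0 identical pairs.

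The light chain genes, the lists and the tests were chosen with earlier results of these data known. Named were all light chain probes, list genes called between fractions and the 3 genes closest to each of 6 light chains. Other list genes were picked as examples after their values were seen. List genes were read by their brightest probe. Sample numbers at E15.5 were taken to pair the samples, although the labels do not say what a number marks. Deviations from group means correlated with r = 0.255, 0.189, 0.450 and 0.379 in samples of the same number, all over the limit of 0.1. The main fit and the permutation tests left this pairing out, and it entered the alternative with sample number as a block.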

Additional observations from a re-analysis of the deposited data

Results flagged for a closer look

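In 5 of 48 probe and group combinations, 1 of 4 microarrays lay apart from the others by Dixon's test, where chance flags about 1 in 20. These were Myl4 in EH sample 6 (297935, others 286777), Myl6b in PL sample 3 (272, others 311 to 318), Myl7 in EL sample 8 (8700, others 9639 to 9718), Myl9 in EH sample 6 (205883, others 234685) and Myl12a in EH sample 6 (12360, others 13168 to 13341). For Myl4 and Myl9 the other samples share a rank and therefore a value, so that the chance rate does not hold there. Myl3 held 1 value in EL and in PL and could not be flagged in them. Of the 5 flagged, 3 concern EH sample 6, among them the tied cases of Myl4 and Myl9. The processed Myl4 signal of that sample, 276688, lay below those of the other EH samples (279090 to 286241), so that its flag as the highest came from the ranks. EH sample 6 also had the highest sum of leukocyte genes, whose part in these flags was not tested.

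The difference between the fractions was not the same at E15.5 and P2 for 5 of 12 probes, by the interaction term at an adjusted p of at most 0.05 (limma). Of all probes, 1.81% passed it upward and 1.35% downward. Stage, slide and purification change together in this term. On the log2 scale the interaction was -2.02 for Myl2, 3.30 for Myl4, 0.77 and 0.94 for the probes of Myl6 and 0.75 for Myl12b. The adjusted p of Myl12b, 0.0048, became 0.0674 with scaling to the 75th percentile.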

How the results depend on the processing

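Microarrays limit these results through their number, through dim signals (the second Myl1 probe in EL and PL) and through the top ranks, which quantile normalization holds at fixed values. Of the alternative values, 232 for the counts and pair differences kept their direction and side of the threshold, while 4 pair differences no longer passed. With scaling to the 75th percentile, the 2-fold limit or normexp correction, 8 counts moved. Counts that moved when 1 sample was left out are given apart from these below. For single probes 597 were kept, 5 passed newly, 1 no longer passed and 9 changed sign. With the methods' test, the deposited log2 table or only detected probes, each count of light chain probes that could be computed was the same. Under scaling to the 75th percentile the median log2 fold-change of all probes was -0.18 (EH against EL), -0.14 (PH against PL) and 0.19 (both stage comparisons), against -0.02, -0.01, 0.01 (PL against EL) and 0.03 (PH against EH) after quantile normalization. It raised the count lower in EH from 0 to 1 (Myl3, -1.62), lowered that higher in PH from 5 to 4 (Myl12b, 1.58) and left the interaction of Myl12b not passing the test (adjusted p = 0.0674 by limma). The limit of 2-fold gave 4 higher in EH in place of 3, 2 lower in EH, 8 higher in PH in place of 5, 1 higher and 4 lower in PL than in EL in place of 0 and 2. Normexp correction gave 2 interactions higher in place of 1, with Myl7 added. Leaving out 1 sample in turn gave 0 to 1 lower in EH (1 without EH sample 8), 1 to 2 interactions higher (2 without PL sample 4) and 2 to 3 lower in PL than in EL (3 without PL sample 4). For the pairs it gave 4.89 to 5.19 and 8.67 to 9.62 (Myl7 minus Myl2, E15.5 and P2) and 2.26 to 2.48 and 5.92 to 6.70 (Myl4 minus Myl3).

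With the replicate block, the pair differences were the same, 5.06, 9.07, 2.36 and 6.28, but the smallest p of a sign-flip test over 4 pairs is 0.125, so none can pass. At P2, samples of the same number correlated in their deviations with r = 0.375, 0.176, -0.031 and 0.542, so that 1 of 4 pairs was under the limit and pairing was not assumed. The block changed no call at the 3-fold limit of a single light chain probe. No paired analysis was possible for the stage comparisons because the groups come from different experiments.

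Single values changed sign in 9 instances, each from a value that did not pass the test. With scaling to the 75th percentile, EH against EL became -0.037 and -0.012 for the Myl6 probes and -0.20 for Myl12a, and PH against EH became 0.20 for Myl4 and -0.018 for Myl12a. With slide as a block, EH against EL was -0.0018 for Myl12a, and with normexp correction PH against EH was 0.00 for Myl4. Without 1 sample, the interaction of the first Myl1 probe ranged from -0.71 to 0.018 and PH against EH of Myl4 from -0.062 to 0.038. Myl2 and Myl3, both at 0.00 between PL and EL after quantile normalization, were at 0.40 and 0.48 with scaling to the 75th percentile, neither past the test.

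Over all probes, normexp correction lowered the calls from 654 to 164 higher and from 253 to 43 lower in EH, and from 966 to 276 higher and from 510 to 142 lower in PH. Setting dim signals to a floor gave 422 and 174 in EH and 573 and 312 in PH. The causes were not tested.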
